A study of Mus musculus with 6 samples.

Results

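The genes described here carry fatty acids into the mitochondrion and the peroxisome, break them down, make ketone bodies from the product, and build and desaturate new fatty acids. They are 40 genes chosen by symbol for these roles, and all 40 had a row among the 24956 rows of the deposited expression table. Of these, 24 belong to oxidation and ketone body metabolism, 11 to acyl-CoA handling, lipid droplets and the control of lipases, and 5 to synthesis (Fasn, Acaca, Scd1, Scd2 and Srebf1).

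RNA was sequenced from mouse intestinal organoids, which are epithelial cultures grown in a gel from primary cells. All 6 libraries carried the Apc Min genotype, a truncating mutation of the tumour suppressor Apc that gives mice intestinal adenomas, so no library of wild-type cells enters the comparison. The 3 control libraries were grown in control medium and the 3 low glutamine libraries in medium with less glutamine, both on an organoid medium. How much glutamine each medium held, for how long, which segment of the intestine the cells came from and the age of the mice are not given in the sources used here. Libraries of 1 medium are described as biological replicates, but not as separate mice or separate cultures, so every p-value below measures the spread between these samples, which may be technical.

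Fatty acids are activated to acyl-CoA by synthetases, carried across the inner mitochondrial membrane on carnitine, and shortened in repeated rounds of dehydrogenation, hydration, dehydrogenation and thiolysis. Peroxisomes run a parallel chain for very long and branched acids. In the intestine, villus enterocytes absorb and oxidise dietary fat, and the nuclear receptors PPAR alpha, PPAR delta and HNF4 are known regulators of these genes there. Synthesis runs the other way, from acetyl-CoA through malonyl-CoA to palmitate, followed by desaturation, and is governed mainly by SREBP and ChREBP.

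The values are RPKM, reads per kilobase of transcript scaled to library depth, so levels can be set against each other between genes. From the step size of the lowest values, depth was estimated at 24.5 M to 35.34 M reads per library. Libraries of 1 group correlated at 0.996 to 0.998 over all genes tested, and libraries of different groups at 0.922 to 0.927. Before any comparison, transcripts of the sex chromosomes separated the groups: Xist was 90.5, 83.1 and 88.1 RPKM in the control libraries and at most 0.0350 RPKM in the low glutamine libraries. Eif2s3y, on the Y chromosome, was listed at 0 in the controls and at 26.6, 25.2 and 31.4 RPKM in low glutamine. The groups thus differ in sex-linked transcripts as well as in medium, in all 6 libraries. Whether both groups came from the same animals or organoid line is not given in the sources used here, so for every gene below the medium and a difference of animal, sex or line cannot be told apart. The epithelial marker Epcam was 385 ± 14.3 RPKM over the controls and 490.1 ± 10.6 RPKM over the low glutamine libraries (SD, n = 3 in this and every group below). Col3a1, Adgre1 and Fabp4, markers of stroma, immune cells and fat, were listed at 0 in every library, but other genes of those lists were present. Vim, Cd14 and Ttr were higher in low glutamine, with means of 3.29 and 11.5, 0.694 and 2.04, and 44.9 and 77.7 RPKM. Pdgfrb and Itgam, of the stromal and immune lists, were lower there. Their means were 0.271 and 0.0739 RPKM and 0.783 and 0.230 RPKM, too low for the test.

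Genes of oxidation fell almost throughout in low glutamine medium. Of the 24 oxidation and ketone body members, 23 were lower and none was higher by limma's moderated test on log2(RPKM + 1) at a Benjamini-Hochberg adjusted p under 0.05, and Eci2 did not pass (unadjusted p = 0.046, higher). Over all 11082 genes tested, those with a mean of at least 1 RPKM, 66.4% passed, 30.3% as lower and 36.1% as higher, so most genes tested differed between the groups. The median log2 fold change was -0.41 over the 24 genes and 0.03 over all genes tested. In 9 of the 24 the fall was at least 1.5-fold in RPKM, beside 10.9% of all genes, and in 4 it was at least 2-fold, beside 5.13%. The 3 libraries of each group did not overlap for 22 of the 24 as lower, where 31.3% of all genes were, and for 1 as higher, where 38.9% were (70.2% in either direction). In bulk RNA, fewer cells of a type and less RNA per cell cannot be told apart.

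Of the 11 handling genes, 10 could be tested, and 8 fell, Acsl4 rose and Acot1 did not pass, with a median log2 fold change of -0.43. Of the 5 synthesis genes, 4 fell and Srebf1 rose, with a median of -0.17. Over all 40 members, 39 were tested, 35 fell, 2 rose and 2 did not pass, and Acot12 lay under the limit for testing. Beside these counts, 30.3% of all genes tested fell and 36.1% rose. RPKM columns do not share a total, and setting them to a common sum raised the median of all genes by 0.11 on the log2 scale, or by 0.14 with the ribosomal transcript Rn45s left out of the sum. The share of higher genes among all genes past the test then went from 54.4% to 69.1% and 71.7%. Relative to the median of all genes, the oxidation median was -0.45 as deposited and -0.44 and -0.43 after rescaling. Of the 24 oxidation genes, 22 and then 21 still fell, beside 2543 of 11093 and 2385 of 11097 genes tested. Of the 5 synthesis genes only 2 were lower after either rescaling, with medians of -0.045 and -0.018.

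**Figure D1:**
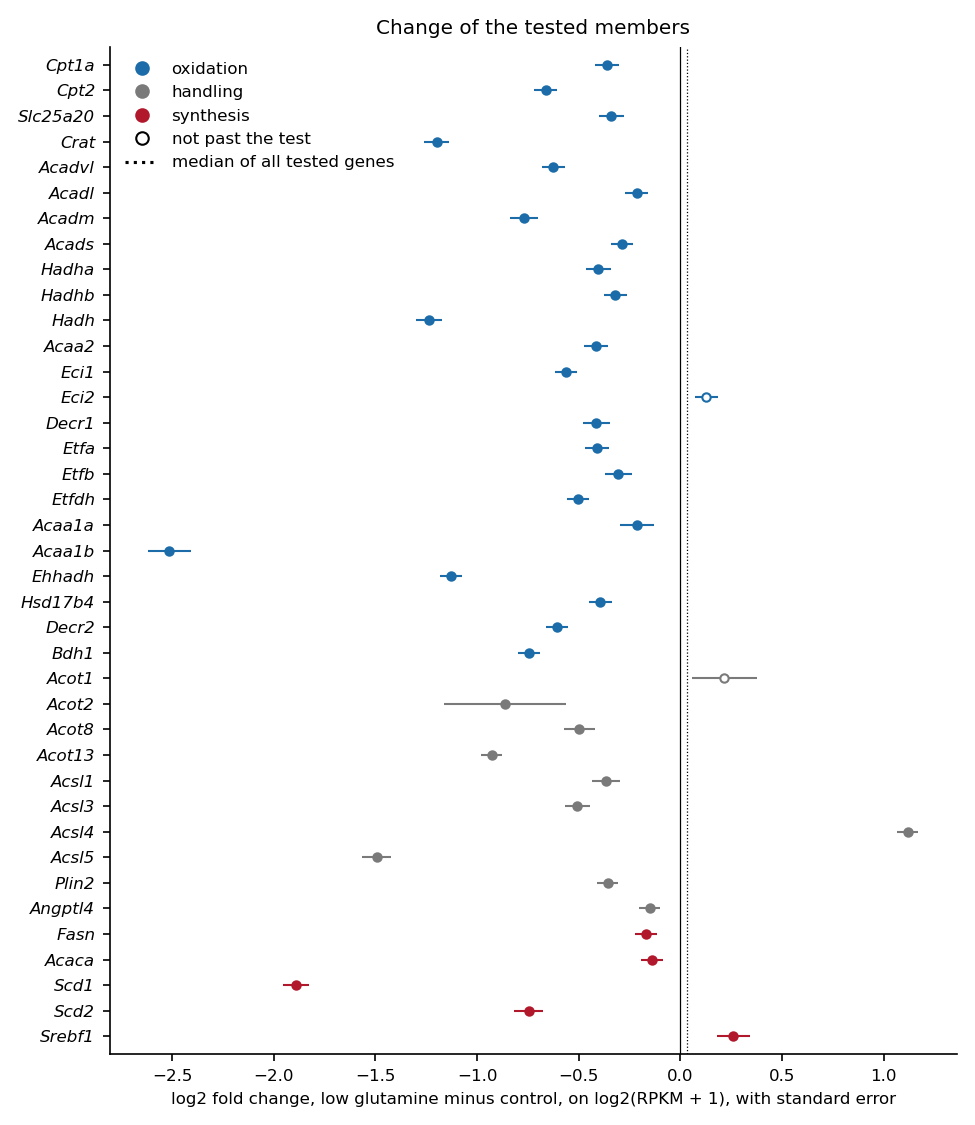
Log2 fold change (x axis, low glutamine minus control on log2(RPKM + 1)) of the 39 tested members (y axis), with standard errors as bars, coloured by oxidation, handling and synthesis. Open points did not pass the test, the dotted line is the median of all genes tested at 0.03, and only Acsl4 and Srebf1 among the filled points lie to the right of 0.

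Markers of intestinal cell types differed between the groups alongside these genes, where 30.3% of all genes tested fell and 36.1% rose. Of 25 enterocyte markers, 20 fell, 4 rose (Alpi, Anpep, Apob and Myo7b) and Ezr did not pass, and their summed RPKM was 3815 to 4036 in the controls and 1213 to 1334 in low glutamine. Krt20, a keratin of mature villus cells, fell from 72.9 ± 1.63 to 11.8 ± 0.684 RPKM, and Fabp2, the intestinal fatty acid binding protein, from 180.2 ± 2.95 to 33.7 ± 3.10 RPKM (adjusted p = 1.9e-12 and 1.4e-11). All 10 stem cell markers rose, with sums of 810.3 to 881 and 1605 to 1790.1, and Lgr5, their defining gene, went from 42.5 ± 1.14 to 113 ± 3.87 RPKM (adjusted p = 3.2e-10). All 8 Paneth cell markers rose (sums 2520.0 to 2677 and 6826 to 7622), and 8 of 9 enteroendocrine markers did (350.5 to 363 and 1311 to 1493). All 8 goblet cell markers fell (1872 to 2209.8 and 877 to 967).

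Epithelial markers as a whole were split, 4 lower and 4 higher of 8, with Epcam higher (adjusted p = 0.00037) and Vil1, of the brush border, falling from 190.4 ± 2.16 to 133 ± 6.66 RPKM (adjusted p = 7.3e-06). Summed markers of stroma were 3.22 to 4.01 RPKM in control and 10.9 to 12.9 in low glutamine, where Vim, the only 1 of 8 high enough to test, rose. Those of immune cells were 2.58 to 2.73 and 4.36 to 5.03, with 2 of 8 tested and both higher, and those of fat and liver 44.7 to 47.5 and 83.9 to 88.2, with 2 of 8 tested and both higher. The part of these shifts in cell type markers in the fall of the oxidation, handling and synthesis genes was not tested.

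All 4 genes of the carnitine shuttle fell. Cpt1a, the outer membrane carnitine palmitoyltransferase and the known control point of entry into the mitochondrion, had 16.9, 18.2 and 17.6 RPKM in the control libraries and 12.9, 12.9 and 14.7 RPKM in the low glutamine libraries. Every low glutamine library lay below every control library, and the mean fell by 23.3% (log2 fold change -0.36 ± 0.06 SE, adjusted p = 0.0002). Slc25a20, the carrier that exchanges acylcarnitine for carnitine across the inner membrane, fell about as much, from 18.6 ± 0.867 to 14.5 ± 1.03 RPKM (log2 fold change -0.34, adjusted p = 0.00034). Cpt2, which returns the acyl group to CoA inside the matrix, had 28.0, 30.3 and 28.1 RPKM in the control libraries and 17.5, 17.2 and 18.8 RPKM in the low glutamine libraries. Its groups lay further apart than those of Cpt1a, with a 1.61-fold fall (log2 fold change -0.66 ± 0.06 SE, adjusted p = 5.4e-07).

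Crat, the carnitine acetyltransferase that buffers acetyl-CoA by passing short acyl groups to carnitine (chr2:30400476-30416017, GRCm38.p6, the mm10 build), moved most in this group. It had 9.03, 9.75 and 8.74 RPKM in the control libraries and 3.27, 3.25 and 3.78 RPKM in the low glutamine libraries. Even the lowest control library was more than the highest low glutamine library by a wide margin, and the mean fell 2.67-fold (log2 fold change -1.20 ± 0.06 SE, adjusted p = 5.9e-09). Of all genes tested, 2.88% had a log2 fold change as low as that of Crat or lower.

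**Figure D2:**
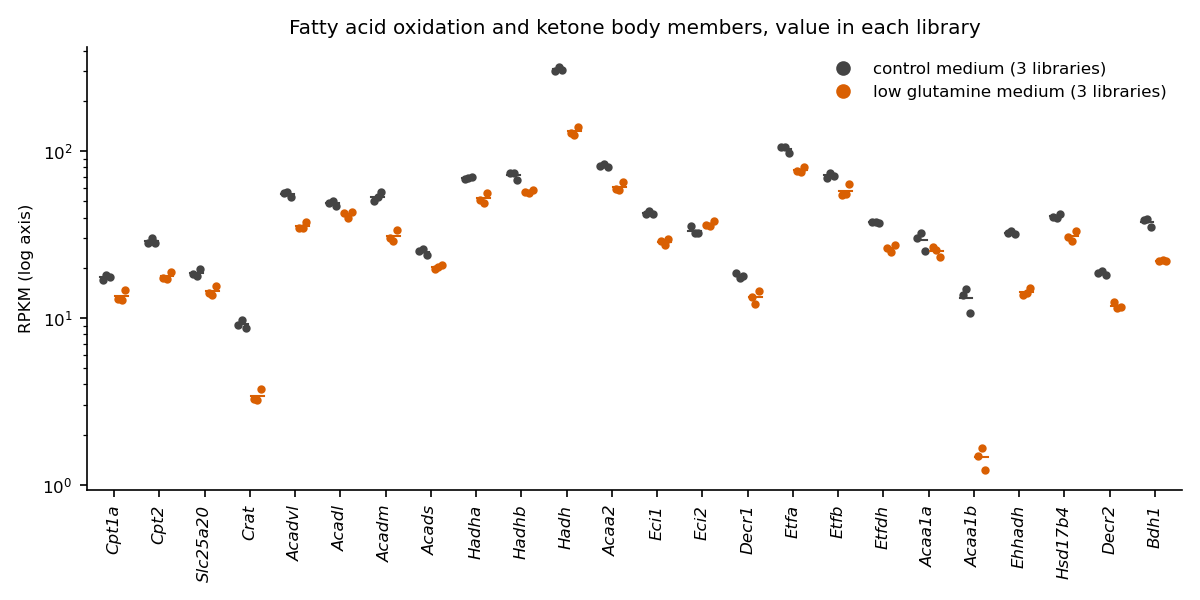
RPKM on a log axis (y) of the 24 oxidation and ketone body members (x) in each of the 3 control and 3 low glutamine libraries, with a short line at each group mean. The low glutamine points lie below the control points for 22 genes, overlap them for Acaa1a and lie above them for Eci2.

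The first step of each round is made by acyl-CoA dehydrogenases of different chain length, and all 4 fell. Acadvl, for very long chains, fell from 55.5 ± 1.91 to 35.7 ± 1.58 RPKM (log2 fold change -0.62, adjusted p = 7.7e-07), and Acadm, for medium chains, had 50.5, 52.9 and 56.8 RPKM in the control libraries and 30.0, 29.0 and 33.9 RPKM in the low glutamine libraries. The Acadm groups were far apart compared with their spread, with a 1.73-fold fall (log2 fold change -0.77 ± 0.07 SE, adjusted p = 7.2e-07). Acads, for short chains, fell from 24.9 ± 1.11 to 20.2 ± 0.624 RPKM (log2 fold change -0.29, adjusted p = 0.00049). Acadl, for long chains, changed least of the group, with 49.0, 49.9 and 47.0 RPKM in the control libraries and 42.8, 39.6 and 43.1 RPKM in the low glutamine libraries. Its groups did not overlap and it passed the test (log2 fold change -0.21 ± 0.06 SE, adjusted p = 0.0046), but after rescaling to a common sum without Rn45s its adjusted p was 0.11, and after quantile normalization 0.12. Acadvl shares 45.0% of its exon bases with Dvl2 on the opposite strand, and whether the libraries kept strand is not given in the sources used here, so reads of the pair cannot be told apart. Dvl2 itself averaged 8.52 RPKM over the controls and 8.33 RPKM over the low glutamine libraries. Bdh1, Acaa1b and Eci2 overlap opposite-strand gene models over 14.6%, 13.3% and 10.8% of their exon bases.

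The next steps are carried out by the mitochondrial trifunctional protein, made of the subunits Hadha and Hadhb, on long chains, and by separate matrix enzymes on shorter ones. Hadha, which holds the hydratase and a dehydrogenase, had 68.5, 69.1 and 69.6 RPKM in the control libraries and 50.9, 49.2 and 56.2 RPKM in the low glutamine libraries. Hadhb, the thiolase subunit, had 74.1, 73.8 and 67.5 RPKM in the control libraries and 56.8, 56.5 and 58.5 RPKM in the low glutamine libraries. Neither gene's groups overlapped, and the subunits fell by similar amounts: the log2 fold change was -0.40 ± 0.06 SE for Hadha (adjusted p = 7.4e-05) and -0.32 ± 0.06 SE for Hadhb (adjusted p = 0.0003). Acaa2, the matrix thiolase for shorter chains, fell from 81.5 ± 1.82 to 61.0 ± 3.47 RPKM (log2 fold change -0.41, adjusted p = 4.5e-05).

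Hadha and Hadhb lie head to head on mouse chromosome 5, with RefSeq starts at 30154980 and 30155253 that are 273 bases apart. Their GENCODE starts are 86 bases apart, so how much lies between the genes depends on the annotation. By RefSeq the genes share the stretch between them. It is shown because the subunits of 1 enzyme lie on either side of it and both fell. The 250 bases before the Hadhb start, from RefSeq on GRCm38.p6 (chr5:30155003-30155252, plus strand), have in capitals the 228 bases that also lie within 250 bases before the start of Hadha:
Hadhb: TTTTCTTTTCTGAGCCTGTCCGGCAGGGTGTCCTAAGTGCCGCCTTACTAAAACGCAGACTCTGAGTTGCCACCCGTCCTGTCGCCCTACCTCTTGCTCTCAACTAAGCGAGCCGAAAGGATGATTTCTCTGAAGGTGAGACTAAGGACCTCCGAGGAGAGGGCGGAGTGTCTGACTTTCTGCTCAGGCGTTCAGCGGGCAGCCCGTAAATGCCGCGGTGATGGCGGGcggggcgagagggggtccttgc

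Hadh, the matrix hydroxyacyl-CoA dehydrogenase for medium and short chains (chr3:131233419-131272101), was the most abundant oxidation member in both media. It had 303, 319 and 308 RPKM in the control libraries and 128, 126 and 139.9 RPKM in the low glutamine libraries. All 3 low glutamine libraries were below the lowest control, and the mean fell 2.36-fold (log2 fold change -1.24 ± 0.06 SE, adjusted p = 3.6e-09). Its share of the summed RPKM of the 24 genes went from 24.5% ± 0.411 to 15.9% ± 0.202. Hadh and the trifunctional subunits all carry out oxidation steps in the matrix, yet the log2 fold change of Hadh was -1.24 beside -0.40 and -0.32.

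Unsaturated acyl chains need auxiliary isomerases and reductases before the spiral can go on. Eci1, an enoyl-CoA isomerase of the mitochondrion, fell from 42.8 ± 1.03 to 28.7 ± 1.18 RPKM (log2 fold change -0.56, adjusted p = 1.4e-06), and Decr1, the mitochondrial dienoyl-CoA reductase, fell from 18.0 ± 0.647 to 13.3 ± 1.23 RPKM (log2 fold change -0.41, adjusted p = 0.00013). Eci2, an isomerase found in peroxisomes and mitochondria, was the exception, with 35.5, 32.4 and 32.4 RPKM in the control libraries and 35.9, 35.6 and 38.3 RPKM in the low glutamine libraries. Each low glutamine library was above each control, by a small margin, and the log2 fold change of 0.13 ± 0.06 SE did not pass (adjusted p = 0.066). It passed as higher in 5 of 17 alternative settings, among them when control replicate 1 was left out (log2 fold change 0.17, adjusted p = 0.041) and after rescaling to a common sum (0.25, adjusted p = 0.00062).

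The electrons that the dehydrogenases remove pass to the electron transfer flavoprotein, made of Etfa and Etfb, and from there through Etfdh to ubiquinone. All 3 genes fell without overlap. Etfa fell from 103 ± 5.19 to 77.2 ± 2.35 RPKM (log2 fold change -0.41, adjusted p = 5.3e-05), Etfb from 71.5 ± 2.13 to 57.8 ± 5.03 RPKM (log2 fold change -0.30, adjusted p = 0.0014) and Etfdh from 37.4 ± 0.309 to 26.1 ± 1.36 RPKM (log2 fold change -0.50, adjusted p = 4.4e-06). The GENCODE model Gm45233 holds 69.1% of the exon bases of Etfb on the same strand, so reads of Etfb could have been divided between the models.

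The 5 peroxisomal enzymes all fell, by amounts that differed more than in the other oxidation groups. Ehhadh, the bifunctional enzyme that hydrates and dehydrogenates acyl chains in the peroxisome (chr16:21761285-21787834), had 32.3, 33.1 and 31.8 RPKM in the control libraries and 13.7, 14.1 and 15.1 RPKM in the low glutamine libraries. The groups were far apart, with a 2.27-fold fall (log2 fold change -1.13 ± 0.05 SE, adjusted p = 2.3e-09). Hsd17b4, the other bifunctional enzyme, which also handles branched chains, fell from 40.7 ± 0.925 to 30.8 ± 2.12 RPKM (log2 fold change -0.39, adjusted p = 8.3e-05), and Decr2, the peroxisomal dienoyl-CoA reductase, fell from 18.6 ± 0.516 to 11.9 ± 0.596 RPKM (log2 fold change -0.61, adjusted p = 7.8e-07).

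The peroxisomal thiolase has 2 near-identical copies in the mouse, Acaa1a and Acaa1b, and their values moved by different amounts. Acaa1b (chr9:119148043-119157093) had 13.8, 15.004 and 10.6 RPKM in the control libraries and 1.496, 1.66 and 1.23 RPKM in the low glutamine libraries, an 8.99-fold fall and the lowest log2 fold change of the 39 members (log2 fold change -2.51 ± 0.10 SE, adjusted p = 5.8e-10). Acaa1a had 30.4, 32.5 and 25.3 RPKM in the control libraries and 26.5, 25.4 and 23.3 RPKM in the low glutamine libraries. There the groups overlapped, control replicate 3 being no higher than 2 of the low glutamine libraries, and the call was near the threshold (log2 fold change -0.21 ± 0.08 SE, adjusted p = 0.038). It was lost in 8 of the 17 alternatives, among them without control replicate 1 (adjusted p = 0.12), control replicate 2 (0.15), low glutamine replicate 2 (0.06) and low glutamine replicate 3 (0.15). Acaa1b made up 31.2, 31.6 and 29.6% of the pair's summed RPKM in control and 5.35, 6.12 and 5.003% in low glutamine. The sum itself was 1.60-fold lower in low glutamine, with 44.1, 47.5 and 35.9 in control medium and 28.0, 27.1 and 24.6 in low glutamine medium, groups that did not overlap.

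The coding sequences of Acaa1a and Acaa1b (GENCODE vM21) agree at 96.5% of 1272 aligned bases, differ at 44, and are identical over runs of up to 327 bases. Of the 50-base words of Acaa1a, 34.0% also occur in Acaa1b, so short reads from those stretches could be given to either copy, and the rule the authors used is not given in the sources used here. Coding positions 460 to 549 of both genes, the stretch with the most differences, show where reads can be told apart, with the 13 differing bases in capitals:
Acaa1a: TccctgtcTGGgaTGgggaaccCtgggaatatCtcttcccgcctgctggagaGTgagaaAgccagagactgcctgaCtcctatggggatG
Acaa1b: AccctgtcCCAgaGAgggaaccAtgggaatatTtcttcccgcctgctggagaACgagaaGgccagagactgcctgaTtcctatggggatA

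**Figure D3:**
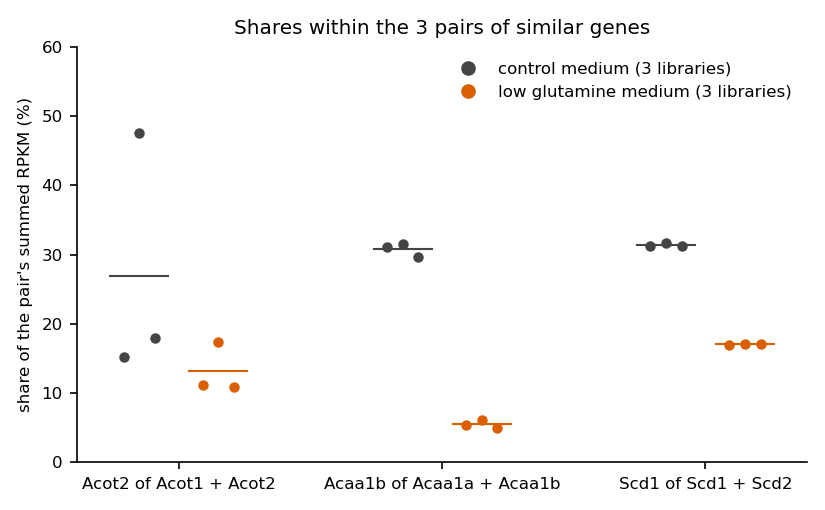
Share of each pair's summed RPKM (y axis, percent) held by Acot2, Acaa1b and Scd1 (x axis) in the 3 control and 3 low glutamine libraries, with a line at each group mean. Acaa1b and Scd1 have lower shares in all 3 low glutamine libraries than in any control, while the Acot2 shares overlap and control replicate 2 stands at 47.6%.

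Ketone bodies are made from the acetyl-CoA of oxidation. Bdh1, the mitochondrial dehydrogenase that interconverts acetoacetate and beta-hydroxybutyrate, had 38.5, 39.4 and 35.1 RPKM in the control libraries and 22.1, 22.2 and 22.0 RPKM in the low glutamine libraries. The low glutamine libraries were nearly equal and all below the controls (log2 fold change -0.74 ± 0.06 SE, adjusted p = 1.6e-07).

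Besides Bdh1, 9 further ketone body genes were listed, of which 6 could be tested. Of these, 3 fell (all genes tested: 30.3%), 2 rose (36.1%) and Acat1 did not pass. Oxct1, the transferase that uses ketone bodies, rose from 18.9 to 25.8 RPKM (log2 fold change 0.42, adjusted p = 1.9e-05). Aacs, the cytosolic enzyme that turns acetoacetate into a precursor of lipid synthesis, fell from 59.6 to 27.7 RPKM (log2 fold change -1.08, adjusted p = 4.0e-09). Acat1, the thiolase that joins 2 acetyl groups, had a log2 fold change of -0.09 (adjusted p = 0.19). Without low glutamine replicate 3 it passed as lower (adjusted p = 0.01).

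Acyl-CoA thioesterases release free fatty acids from CoA, and their 5 members differed widely among themselves. Acot13, which acts on medium and long chains, had 68.9, 71.0 and 67.8 RPKM in the control libraries and 35.2, 35.5 and 37.1 RPKM in the low glutamine libraries. Its groups were tight and far apart, with a 1.93-fold fall (log2 fold change -0.93 ± 0.05 SE, adjusted p = 9.8e-09). Acot8, the peroxisomal enzyme, fell from 8.64 ± 0.994 to 5.82 ± 0.478 RPKM (log2 fold change -0.50, adjusted p = 0.00012); it shares 21.1% of its exon bases with Snx21 on the opposite strand, at 3.57 and 2.77 RPKM. Acot12, a cytosolic acetyl-CoA hydrolase, was at 0.261, 0.296 and 0.349 RPKM over the controls and 0.116, 0.119 and 0.163 RPKM with less glutamine, too low for the test.

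The cytosolic Acot1 and the mitochondrial Acot2 were each uneven between libraries of the same medium. Acot1 had 65.3, 35.5 and 53.0 RPKM in the control libraries and 64.1, 55.1 and 55.3 RPKM in the low glutamine libraries, and Acot2 had 11.7, 32.3 and 11.6 RPKM in the control libraries and 8.03, 11.6 and 6.72 RPKM in the low glutamine libraries. Control replicate 2 was at once the lowest control for Acot1 and the highest for Acot2 by a wide margin, and the groups overlapped for both genes. The sum of the pair was steadier, with 77.0, 67.8 and 64.6 in control medium and 72.1, 66.7 and 62.1 in low glutamine medium. Acot1 did not pass (log2 fold change 0.22 ± 0.16 SE, adjusted p = 0.25), and its log2 fold change was -0.02 without control replicate 2 and 0.41 without control replicate 1 (adjusted p = 0.023). With the replicate number as a block it passed as higher (adjusted p = 0.0015). Acot2 passed as lower (log2 fold change -0.86 ± 0.30 SE, adjusted p = 0.023), a call lost in 6 of the 17 alternatives, including without low glutamine replicate 3 (adjusted p = 0.15). Without control replicate 2 its log2 fold change was -0.40 (adjusted p = 0.018).

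The coding sequences of Acot1 and Acot2 agree at 95.3% of 1236 aligned bases and differ at 58, and Acot2 carries 123 further coding bases before the start of Acot1. They are identical over runs of up to 273 bases, and 23.7% of the 50-base words of Acot1 occur in Acot2, so their separate values are uncertain where their sum is less so. The window with most differences is printed to show what separates the copies, at coding positions 797 to 886 of Acot1 and 920 to 1009 of Acot2, with the 14 differing bases in capitals:
Acot1: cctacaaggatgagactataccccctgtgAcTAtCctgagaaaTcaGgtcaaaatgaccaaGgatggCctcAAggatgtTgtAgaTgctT
Acot2: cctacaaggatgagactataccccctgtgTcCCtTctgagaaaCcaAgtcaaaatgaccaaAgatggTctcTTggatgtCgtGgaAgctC

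The 4 long-chain acyl-CoA synthetases activate fatty acids and are known for different partners and substrates. Acsl5, the abundant mitochondrial and reticulum form of the enterocyte (chr19:55251861-55296628), had 257, 259.6 and 268 RPKM in the control libraries and 89.1, 85.9 and 102 RPKM in the low glutamine libraries. The low glutamine libraries held less than any control, a 2.83-fold fall (log2 fold change -1.49 ± 0.07 SE, adjusted p = 1.8e-09). Acsl4, known for its preference for arachidonate (chrX:142317993-142390802), had 3.61, 3.56 and 3.28 RPKM in the control libraries and 8.58, 8.71 and 8.91 RPKM in the low glutamine libraries. It was the only 1 of these 4 to rise, 2.51-fold and with no overlap (log2 fold change 1.12 ± 0.05 SE, adjusted p = 2.3e-09).

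Together these changes took the ratio of Acsl5 to Acsl4 RPKM from 71.3, 72.8 and 81.6 in the controls to 10.4, 9.87 and 11.5 in low glutamine. Acsl4 lies on the X chromosome, the groups differ in Xist, and the part of that difference in this rise was not tested. Acsl1, the form known from fat-burning and fat-storing tissues, fell from 25.5 ± 1.01 to 19.6 ± 2.03 RPKM (log2 fold change -0.37, adjusted p = 0.00053). Acsl3, found on lipid droplets, fell from 36.0 ± 1.11 to 25.1 ± 2.01 RPKM (log2 fold change -0.51, adjusted p = 1.5e-05).

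Plin2, which coats cytosolic lipid droplets, fell from 29.7 ± 0.980 to 22.9 ± 0.775 RPKM without overlap (log2 fold change -0.36, adjusted p = 7.1e-05). Angptl4, a secreted inhibitor of lipoprotein lipase, had 7.91, 7.88 and 7.53 RPKM in the control libraries and 6.65, 6.88 and 7.20 RPKM in the low glutamine libraries. The groups did not overlap but were close, and the log2 fold change of -0.15 ± 0.05 SE passed narrowly (adjusted p = 0.024). That call was lost in 6 of the 17 alternatives, including without control replicate 1 (adjusted p = 0.074), control replicate 2 (0.079), low glutamine replicate 1 (0.13) and low glutamine replicate 2 (0.059).

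**Figure D4:**
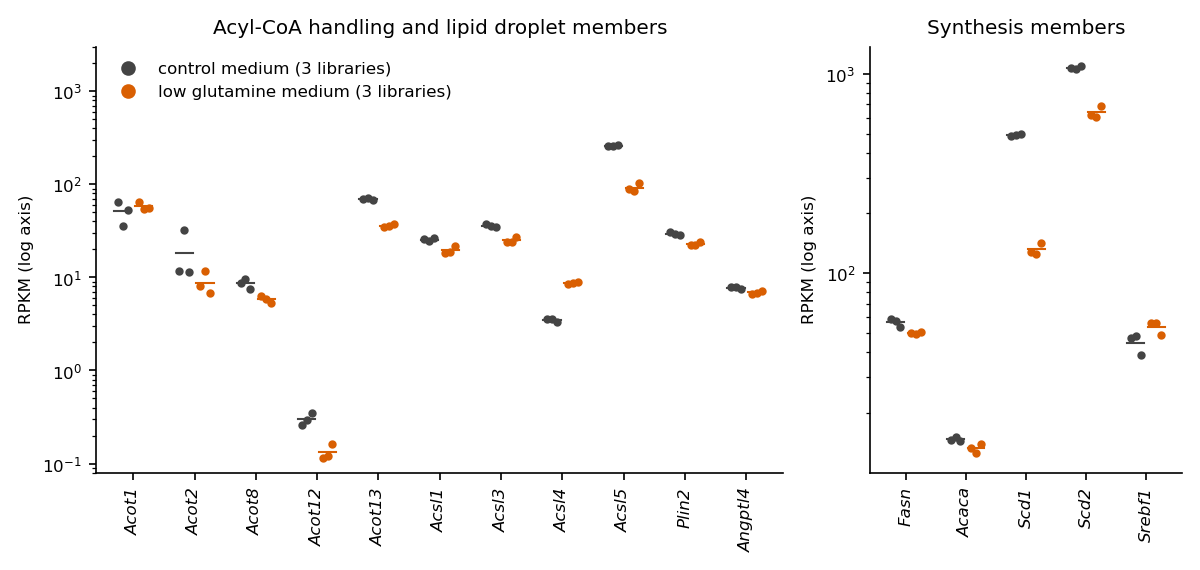
RPKM on log axes (y) of the 11 handling members (left) and the 5 synthesis members (right) in each of the 3 control and 3 low glutamine libraries, with a line at each group mean. Acsl4 and Srebf1 lie higher in low glutamine, Acot1 and Acot2 overlap, and Scd1 shows the widest gap of the synthesis genes.

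In synthesis, the desaturases had larger falls than the enzymes that build the chain. Scd1, a stearoyl-CoA desaturase of the endoplasmic reticulum that puts the first double bond into palmitate and stearate (chr19:44394450-44407709), had 487, 489.9 and 496 RPKM in the control libraries and 128, 125 and 142 RPKM in the low glutamine libraries. Scd2, its paralog and the most abundant of the 40 genes, had 1069.8, 1058 and 1087 RPKM in the control libraries and 624, 607 and 688 RPKM in the low glutamine libraries. Neither gene's groups overlapped, and Scd1 fell 3.73-fold (log2 fold change -1.89 ± 0.06 SE, adjusted p = 9.9e-11) and Scd2 1.68-fold (log2 fold change -0.75 ± 0.07 SE, adjusted p = 1.6e-06). Scd1 went from 31.4% ± 0.209 of the pair's summed RPKM to 17.1% ± 0.0581, with little spread between libraries of 1 medium.

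Scd1 and Scd2 share less of their sequence than the thiolase and thioesterase pairs. Their coding sequences agree at 90.3% of 1065 aligned bases and differ at 103, and 3.0% of the 50-base words of Scd1 occur in Scd2. Their most divergent window, at coding positions 75 to 164 of Scd1 and 84 to 173 of Scd2, has the 30 differing bases in capitals:
Scd1: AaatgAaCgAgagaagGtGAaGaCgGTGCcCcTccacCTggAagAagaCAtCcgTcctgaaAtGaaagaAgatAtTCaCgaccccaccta
Scd2: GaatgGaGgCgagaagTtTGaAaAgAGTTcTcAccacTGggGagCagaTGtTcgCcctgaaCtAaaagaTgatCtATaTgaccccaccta

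Fasn, the synthase that makes palmitate, had 58.8, 57.4 and 53.5 RPKM in the control libraries and 49.9, 49.6 and 50.8 RPKM in the low glutamine libraries. Acaca, the carboxylase that supplies its malonyl-CoA, had 14.6, 15.2 and 14.3 RPKM in the control libraries and 13.3, 12.5 and 13.9 RPKM in the low glutamine libraries. In both the groups were close without overlapping, and both passed narrowly (Fasn: log2 fold change -0.17 ± 0.05 SE, adjusted p = 0.016; Acaca: log2 fold change -0.14 ± 0.05 SE, adjusted p = 0.038). The Fasn call was lost in 6 of the 17 alternatives, including without control replicate 1 (adjusted p = 0.085), control replicate 2 (0.066) and low glutamine replicate 1 (0.065), and with a common sum its log2 fold change was -0.05. The Acaca call was lost in 6, counting 1 change of sign, among them without control replicate 1 (adjusted p = 0.076), control replicate 2 (0.14), low glutamine replicate 1 (0.095) and low glutamine replicate 2 (0.15).

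Srebf1, the gene of the SREBP-1 transcription factor that drives lipogenic genes including Fasn and Scd1, rose while they fell. It had 47.2, 48.2 and 39.1 RPKM in the control libraries and 56.1, 56.0 and 49.2 RPKM in the low glutamine libraries. Each low glutamine library was above each control, the closest being low glutamine replicate 3 and control replicate 2 (log2 fold change 0.26 ± 0.08 SE, adjusted p = 0.014). Without control replicate 3, the lowest library, its log2 fold change was 0.17 (adjusted p = 0.055), after median-of-ratios scaling it was 0.22 (adjusted p = 0.054), and with no filter on low values the adjusted p was 0.071.

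Set beside each other, oxidation and synthesis both held less RNA in low glutamine, but not in the same manner. The summed RPKM of the 24 oxidation genes was 1263, 1297 and 1240.2 in control and 812, 794 and 868 in low glutamine, and fell by 34.9%. That of the 5 synthesis genes was 1677, 1668 and 1690.0 in control and 871, 850.5 and 944 in low glutamine, and fell by 47.1%. The synthesis sum is mostly desaturase: Scd2 made up 63.8% of it in control and Scd1 29.2%. By gene, the median log2 fold change was -0.41 for oxidation and -0.17 for synthesis as deposited, -0.29 and -0.045 with a common sum, and -0.26 and -0.018 with Rn45s left out of that sum. As deposited, the synthesis genes ran from -1.89 for Scd1 to 0.26 for Srebf1. Members of these lists are not replicates, and no test of the difference between the lists was made.

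Other genes of oxidation, from a list of 33 that does not hold the members, moved the same way for the most part. Of 28 tested, 20 fell (all genes tested: 30.3%), 4 rose (36.1%) and 4 did not pass, with a median log2 fold change of -0.45. Abcd4, known for cobalamin transport, fell from 10.5 to 2.95 RPKM, and the fatty acid transport protein Slc27a4 from 21.9 to 8.87 RPKM (adjusted p = 7.3e-10 and 3.4e-09). Those that rose were Acad9, Hsd17b10, Pecr and Acsl6, named here after their values were seen, and the log2 fold changes ran from 0.17 for Acad9 to 1.24 for Acsl6. Hsd17b10 lies on the X chromosome, and over autosomal genes 3 rose. The Acad9 call was lost without control replicate 1, control replicate 2 or low glutamine replicate 3 (adjusted p = 0.065, 0.061 and 0.061), and that of Hsd17b10 without those or low glutamine replicate 1 (0.14, 0.087, 0.089 and 0.057).

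Of 10 other thioesterases, 5 could be tested and all 5 fell, beside 30.3% of all genes tested. Acot9 fell from 10.6 to 4.33 RPKM, Acot7 from 22.2 to 15.8 RPKM and Them4 from 7.87 to 5.30 RPKM (adjusted p = 4.8e-08, 1.3e-05 and 0.00033). Acot9 also lies on the X chromosome. Acot4 and Acot11, named after their values were seen, had log2 fold changes of -0.90 and -0.88. None of the 5 lost its call in an alternative that tested it.

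Several regulators known to act on oxidation genes fell. Of 18 PPAR and HNF4 regulators and cofactors, 17 were tested, 9 fell (all genes tested: 30.3%), 3 rose (36.1%) and 5 did not pass. Among those that rose were the cofactors Pprc1 and Nrip1, with log2 fold changes of 0.22 and 0.16, the latter call being lost without control replicate 2 or low glutamine replicate 1 (adjusted p = 0.069 and 0.069). Ppara, the gene of the receptor that senses fatty acids, had 10.2, 9.85 and 9.98 RPKM in the control libraries and 2.58, 2.51 and 2.81 RPKM in the low glutamine libraries. Its low glutamine libraries all lay far below the controls, and the mean fell by 73.7% (log2 fold change -1.60 ± 0.05 SE, adjusted p = 9.6e-11). Ppard fell less, from 8.82 ± 0.519 to 6.87 ± 0.459 RPKM (log2 fold change -0.32, adjusted p = 0.00059). Pparg, at 9.84 ± 0.522 and 8.93 ± 0.705 RPKM, did not pass (adjusted p = 0.094); without low glutamine replicate 1 it did, as lower (adjusted p = 0.047).

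Ppargc1a, a coactivator of mitochondrial genes, fell from 3.12 ± 0.283 to 1.06 ± 0.167 RPKM (log2 fold change -1.002, adjusted p = 2.1e-07), and Hnf4a, a receptor of the differentiated gut epithelium, from 181 ± 4.59 to 128 ± 4.84 RPKM (log2 fold change -0.49, adjusted p = 9.1e-06). Its relative Hnf4g fell from 40.6 ± 2.17 to 10.9 ± 0.277 RPKM (log2 fold change -1.80, adjusted p = 3.4e-11). Creb3l3, a membrane-bound factor that works with PPAR alpha in the liver, fell from 18.7 ± 1.56 to 3.36 ± 0.288 RPKM and had the lowest log2 fold change of these regulators (log2 fold change -2.17, adjusted p = 5.2e-11).

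**Figure D5:**
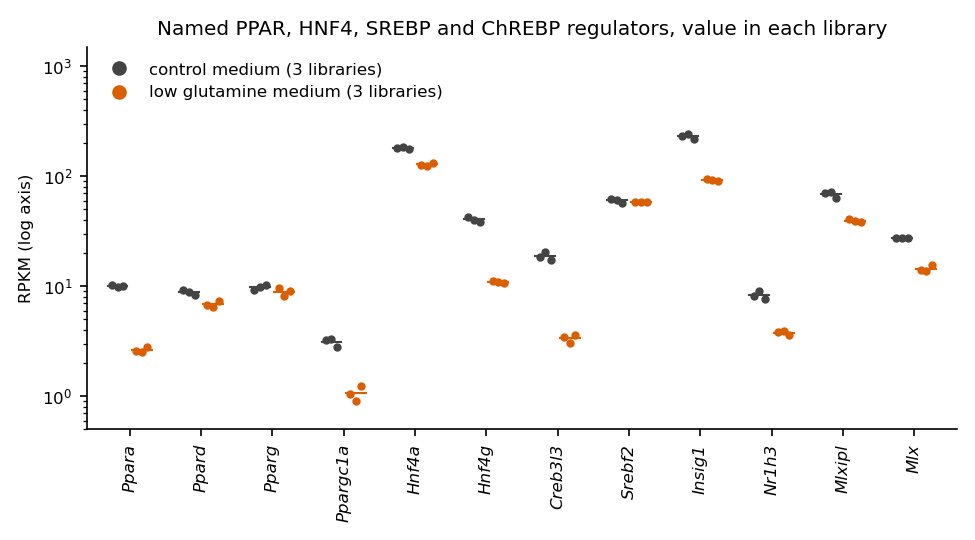
RPKM on a log axis (y) of named PPAR, HNF4, SREBP and ChREBP regulators (x) in each of the 3 control and 3 low glutamine libraries, with a line at each group mean. Ppara, Hnf4g and Creb3l3 are well below the controls in all 3 low glutamine libraries, and Srebf2 overlaps.

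Other known PPAR targets outside the members were mostly too low to test: 9 of 25 could be. Of these, 7 fell (all genes tested: 30.3%) and 2 rose (36.1%). Fabp1, which carries fatty acids in enterocytes and hepatocytes, fell from 828 ± 88.9 to 73.9 ± 9.95 RPKM, an 11.2-fold difference (log2 fold change -3.47, adjusted p = 1.8e-11). Gpd1, which makes glycerol phosphate for triglycerides, fell from 84.5 to 33.6 RPKM, and Cidec, a lipid droplet protein, from 6.49 to 2.38 RPKM (adjusted p = 1.5e-09 and 3.0e-08). Txnip and Hilpda rose by small amounts (log2 fold changes 0.16 and 0.23), named after their values were seen, and lost the call when single libraries were left out, for Txnip control replicates 1, 2 and 3 (adjusted p = 0.15, 0.053 and 0.084) and low glutamine replicate 1 (0.12), and for Hilpda control replicates 1 and 3 (0.084 and 0.063) and low glutamine replicate 3 (0.091).

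Of 26 other genes of synthesis and desaturation, 20 were tested. Of these, 12 fell (all genes tested: 30.3%), 2 rose (36.1%) and 6 did not pass, with a median log2 fold change of -0.19. The 2 that rose were Hacd1 and Mcat (log2 fold changes 0.38 and 0.23), and Mcat lost its call without low glutamine replicate 3 (adjusted p = 0.059). After rescaling to a common sum 9 of the 20 fell and 5 rose, and with Rn45s left out of that sum 9 fell and 6 rose. Over all genes tested, 2543 of 11093 and 2385 of 11097 fell at these settings, and 5689 and 6040 rose. Me1, the malic enzyme that supplies NADPH, fell from 21.4 ± 1.13 to 4.04 ± 0.218 RPKM (log2 fold change -2.15, adjusted p = 1.1e-11). Acss2, which makes acetyl-CoA from acetate, fell from 52.0 to 24.7 RPKM, and Slc25a1, which exports citrate from the mitochondrion, from 216 to 117 RPKM (adjusted p = 2.2e-09 and 6.2e-08). Acly, the lyase that turns that citrate into cytosolic acetyl-CoA, had 95.4, 93.9 and 92.5 RPKM in the control libraries and 92.5, 89.6 and 97.6 RPKM in the low glutamine libraries. Its groups overlapped (log2 fold change -0.01 ± 0.06 SE, adjusted p = 0.86), and after rescaling to a common sum it passed as higher (adjusted p = 0.01).

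Among 10 SREBP and ChREBP regulators besides Srebf1, all tested, 5 fell (all genes tested: 30.3%), 2 rose (36.1%) and 3 did not pass. Those that rose were Scap and Mbtps1, which carry and cleave SREBP (log2 fold changes 0.29 and 0.34, adjusted p = 0.00032 and 0.00033). Insig1, which retains SREBP in the endoplasmic reticulum and is itself a sterol-responsive gene, fell from 231 ± 11.7 to 92.1 ± 1.94 RPKM (log2 fold change -1.31, adjusted p = 1.3e-09). Mlxipl, the gene of ChREBP, fell from 68.4 ± 4.22 to 39.3 ± 1.19 RPKM, and its partner Mlx from 27.5 to 14.4 RPKM (adjusted p = 1.7e-07 and 3.0e-08). Nr1h3, the oxysterol receptor LXR alpha, fell from 8.27 to 3.76 RPKM (log2 fold change -0.96, adjusted p = 4.6e-08). Srebf2, which governs sterol synthesis, was at 60.4 ± 2.44 and 58.8 ± 0.120 RPKM and did not pass (adjusted p = 0.56), though it did as higher with a common sum without Rn45s (adjusted p = 0.021).

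Start regions of the members were searched for letters bound by such factors. RefSeq windows of 300 bases, from 250 before the start to 50 after it, were at hand for 32 of the 40 genes, 36 windows in all, and each motif was looked for on both strands. No window was at hand for Crat, Acaa2, Decr1, Hsd17b4, Acot13, Angptl4, Scd1 or Scd2, so these genes, both desaturases among them, were not searched. The half-site AGGTCA of nuclear receptors was in 5 of the 36 windows (13.9%, beside 16.3% of all 32851 windows), those of Acadm, Acadvl, Acot12, Cpt1a and Plin2. A repeat of AGGNCA with 1 base between the copies, which the half-site can overlap and which PPAR and HNF4 are known to bind, was in 0 of 36, beside 0.381% of all. The sterol element TCACNCCAC was in 2 windows (5.6%, beside 1.24%), of Acsl1 and Ehhadh, the E-box CACGTG in 1 (2.8%, beside 7.15%), of Plin2, and CCAAT in 19 (52.8%, beside 37.4%). A match is a description of the letters only.

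Of the 4 acyl-CoA dehydrogenases, Acadm and Acadvl have the lowest log2 fold changes, and both hold the half-site. Cpt1a, at -0.36, holds it too, and the windows of Hadh, Ehhadh and Acaa1b, with lower log2 fold changes than Acadm, do not. Whether it bears on the falls was not tested. The upstream bases of Acadm and Acadvl on GRCm38.p6 are given with the match in capitals. The match begins 249 bases before the start in Acadm (chr3:153944644-153944893, minus strand), on the reverse strand of the gene, and 87 bases before it in Acadvl (chr11:70015429-70015678, minus strand):
Acadm: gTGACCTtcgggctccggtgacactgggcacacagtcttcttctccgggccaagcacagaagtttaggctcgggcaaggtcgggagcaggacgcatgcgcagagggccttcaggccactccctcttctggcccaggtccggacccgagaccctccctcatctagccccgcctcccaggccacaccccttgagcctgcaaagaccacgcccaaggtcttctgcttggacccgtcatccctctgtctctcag
Acadvl: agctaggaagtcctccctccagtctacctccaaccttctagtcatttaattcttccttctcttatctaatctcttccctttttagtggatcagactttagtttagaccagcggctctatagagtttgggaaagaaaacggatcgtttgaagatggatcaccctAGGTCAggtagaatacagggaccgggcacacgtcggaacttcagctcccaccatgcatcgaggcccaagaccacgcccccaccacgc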

How the data were processed

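The deposited table holds RPKM, made by the authors, in 1 column per library. The submitters' processing notes name the tools CASAVA 1.8, HISAT2 2.0.4 and Partek and the build mm10; their roles, the annotation and the counting rule are not given in the sources used here. RPKM are not counts, so no count model was used.

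RPKM was transformed to log2(RPKM + 1), which understates changes of low genes, and tested with limma 3.58.1 in R 4.3.3 (empirical Bayes with a variance trend, two-sided, Benjamini-Hochberg over the 11082 genes that averaged 1 RPKM or more, threshold 0.05). Fold changes quoted as n-fold are ratios of mean RPKM. Depth was estimated from steps in the lowest values: with 107 to 137 low values per library, 85.0% to 91.7% were within 0.02 of a whole read, short of nearly all, so reads were not recovered. The test was tried on simulated data.

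Members, lists and motifs were chosen with earlier results of these data known. Named besides the 40 members were the 3 genes of each further list with the largest change past the test, without overlap and with at least 5 RPKM in the higher group, and 10 genes chosen by name; some of these are not reported here. Same-numbered libraries deviated together (r = 0.15, 0.25 and 0.57), which met the rule for pairing, a hint from the data and not from the labels. Control replicates 1 and 2 deviated more with low glutamine replicates 2 and 1 (r = 0.20 and 0.36) than with their own numbers. There were 17 alternatives: 2 pseudocounts, 2 filters, 4 scalings, no variance trend, a replicate block, autosomal genes only and each library left out. Sequences and gene bounds came from RefSeq and GENCODE vM21 on GRCm38.p6 and were compared with Biopython 1.88 in Python 3.11.15. No term for sex-linked transcripts could be added, since they coincide with the medium in all 6 libraries.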

Additional observations from a re-analysis of the deposited data

How the results depend on the processing

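Over the 17 alternatives the 24 oxidation genes gave 21 to 23 lower calls, and 30 of the 39 tested members kept their call in all. In numbers, 617 values of single members kept direction and call, 36 lost the call, 7 gained one and 2 changed sign: Acot1 (-0.020 without control replicate 2, 0.41 without control replicate 1) and Acaca (0.0038 with a common sum without Rn45s). Genes called over the whole table ran from 5279 with a mean of at least 5 RPKM to 9196 with no filter. The oxidation median was -0.29 with a common sum and -0.26 without Rn45s in it. The handling median was -0.31 and -0.29 there, -0.32 with a pseudocount of 5, -0.37 with no filter, -0.35 after quantile normalization and -0.50 over autosomal genes. The synthesis median was -0.045 and -0.018 with the common sums, -0.21 with median-of-ratios scaling and -0.13 after quantile normalization. Both common sums left 2 synthesis genes lower. Oxidation had 1 gene higher, Eci2, with both common sums, median-of-ratios scaling and quantile normalization. Synthesis had 0 higher with no filter and with median-of-ratios scaling. Handling had 0 higher over autosomal genes, which leave out Acsl4, and 2 with the replicate block, which changed no other call of a member than that of Acot1. Leaving out 1 library at a time gave 22 to 23 oxidation genes lower and 0 to 1 higher, handling 7 to 8 lower and 1 to 2 higher, and synthesis 2 to 4 lower and 0 to 1 higher, with medians of -0.47 to -0.39, -0.45 to -0.40 and -0.21 to -0.15. With control replicate 1, control replicate 2 or low glutamine replicate 1 left out, 2 synthesis genes were lower, and with control replicate 3 left out 0 were higher. Other lists had ranges of 17 to 22 lower for further oxidation genes, 8 to 10 for PPAR and HNF4 regulators, 9 to 14 for further synthesis genes and 5 to 8 for further PPAR targets, whose higher calls ran from 0 to 6. The settings did not all test the same genes. The 17 came with a mean of at least 5 RPKM, where 23 further oxidation genes were tested instead of 28. The 6 came with no filter, where 23 further PPAR targets were tested instead of 9. The causes were not tested. RPKM keep no count behind a value, so precision at low levels such as that of Acot12 could not be given.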
